A study of Homo sapiens with 24 samples.

Results

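Wild-type (WT) Huh7 cells after 48 h in 800 µM palmitic acid were compared with WT Huh7 cells in basal medium (0 h). Huh7 is a human hepatoma line. The comparison was taken from the sample titles, which put 4 libraries in each group, and it set 8 of the 24 libraries of the series against each other. The fit behind the p-values took its spread from all 24 libraries. Of 58024 gene rows, 17252 were tested. The other 16 libraries were WT cells at 24 h of the acid and ABHD6 knockout (KO) cells at 0 h, 24 h and 48 h. WT cells at 0 h had received no palmitic acid. No untreated cells were sampled at the later time, so effects of the acid and of longer culture cannot be told apart. In the treatment protocol treated plates were harvested on day 1, and the time of 48 h is known from the titles. Nothing in the labels tells if the libraries within a group are separate cultures, so p-values measure only the spread between these libraries, which may be technical. Cells were grown in DMEM with 10% serum, and the RNA was sequenced as mRNA libraries from a directional kit.

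Palmitic acid is the saturated fatty acid that liver cells make and receive in the largest amount. Cells activate it to a CoA ester and then oxidise it in mitochondria, desaturate or elongate it, or store it in triglycerides, phospholipids and sphingolipids. An excess of saturated acyl chains in the endoplasmic reticulum (ER) membrane is known to activate the unfolded protein response and the integrated stress response in hepatocytes, and to load lysosomes and lipid droplets. Hepatoma cells also divide and secrete plasma proteins, so the genes of the cell cycle and of liver secretion were described beside those of lipid metabolism.

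Values are FPKM, in which sequenced fragments are divided by the length of the transcript and the size of the library. Changes are log2 fold changes on FPKM + 0.5 with their standard error (SE), 48 h minus 0 h, which understate the change of low genes. The smallest steps of the values placed about 399149 to 474671 fragments behind each library at 0 h and 584389 to 771105 at 48 h. A transcript of 2 kb then gains 0.648 to 1.25 FPKM with each fragment, so values of a few FPKM rest on a few fragments. Summed FPKM was 1031361 to 1160427 at 0 h and 748252 to 949068 at 48 h, lowest in replicate 3 at 48 h. Antisense annotations took 56.1% to 58.1% of all FPKM at 0 h and 44.3% to 47.4% at 48 h, and mitochondrially encoded protein genes 3.26% to 3.80% and 10.4% to 12.1%. At 48 h 4 of the 13 mitochondrial protein genes were listed at 0. The summed FPKM and these shares are therefore not like for like between 0 h and 48 h. In 1373 antisense and protein-coding pairs, the antisense row was the higher by its mean in 857 at 0 h and in 809 at 48 h. AC006064.4, which lies opposite GAPDH°, stood at a mean of 65580 FPKM at 0 h while GAPDH° stood at 299, and MT-ND6, the mitochondrial protein gene on the opposite strand to the other 12, had the highest mean of the 13 at 20502. Which strand the authors counted is not stated in the labels. With the setting opposite to the kit, a row would hold the reads of whatever lies on its other strand and only stray reads of its own gene. A gene whose exons overlap a gene of the other strand is therefore marked °, and its value may hold reads of the partner. Unmarked genes are not free of this doubt. A gene name below stands for its row, and whether a row holds the RNA of its own gene was not tested. A † marks a call lost in 4 or more of the 8 fits that left out 1 of the 8 libraries. Calls lost under other alternatives, such as a fit of only the 8 libraries, carry no mark.

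Of 17252 genes tested, 443 were higher at 48 h and 728 lower, 1171 or 6.79% in all, at an adjusted p under 0.05 from limma with Benjamini-Hochberg adjustment. A fit of only the 8 libraries compared called 591 genes. The shares by direction were 2.57% higher and 4.22% lower, and 746 genes (4.32%) also changed at least 2-fold. Counts of called members in the lists below are to be read beside the shares by direction, and no list was tested as a set. A test of only genes with no opposite-strand overlap called 160 of 9213 genes higher and 60 lower. List counts from that test are to be read beside these and not beside the shares above. The 4 libraries at 48 h lay all above the 4 at 0 h for 864 genes (5.01%) and all below for 1154 (6.69%). The median log2 fold change of all genes tested was 0.00. Direction went with the annotation class. Protein-coding genes with no opposite-strand overlap were higher in 218 and lower in 89 of 6786, with a median of 0.18. Those with an overlap were higher in 130 and lower in 345 of 5257, with a median of -0.05, and antisense genes were higher in 50 and lower in 213 of 2228, with a median of -0.16. The balance of directions also depended on scaling: rescaling by median-of-ratios gave 591 genes higher against 585 lower, and quantile normalization gave 544 against 390. The part of strand and of the mitochondrial share in these counts was not tested.

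**Figure D1:**
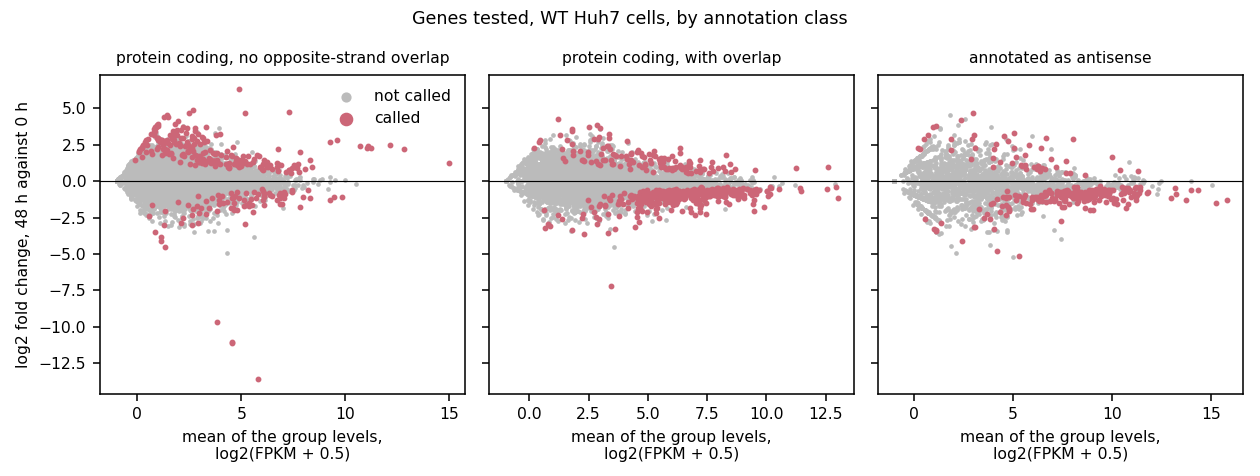
Log2 fold change at 48 h against 0 h (vertical) against the mean of the 2 group levels on the log2(FPKM + 0.5) scale (horizontal) for protein-coding genes without opposite-strand exon overlap, protein-coding genes with overlap and antisense genes. Each point is a gene and called genes are red; the lower calls are denser among the abundant genes of the 2 right panels (345 and 213) than in the left panel (89).

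Genes of cholesterol synthesis were higher after 48 h. Of 25 enzymes and regulators, all above the floor for testing, 9 rose (36%, against 2.57% of all genes), and the median of the 25 was 0.91. MSMO1, the sterol C4-methyl oxidase (ENSG00000052802.12, chromosome 4, 165327623 to 165343160, GRCh38), stood at 27.6, 35.2, 40.7 and 60.9 FPKM at 0 h and at 128, 92.8, 102 and 123 FPKM at 48 h. Every library at 48 h lay above every library at 0 h, and MSMO1 rose 2.78-fold (log2 1.48 ± 0.23, limma adjusted p = 0.000158). DHCR7, which makes cholesterol from its last precursor, had 46.1, 18.8, 61.2 and 62.5 FPKM at 0 h and 96.1, 123, 82.1 and 124 FPKM at 48 h. Again the groups did not overlap (1.28 ± 0.29, limma adjusted p = 0.00723). INSIG1, which holds the SREBP escort protein in the ER, went from 41.5 ± 10.9 to 81.2 ± 9.01 FPKM (SD, n = 4 each), a rise of 0.99 ± 0.23. SQLE, the squalene epoxidase, rose by 1.32 ± 0.27. The other calls carry the overlap mark, among them CYP51A1° (1.32 ± 0.16), the sterol demethylase, HMGCS1° (1.10 ± 0.23), the synthase of HMG-CoA, and IDI1° (1.02 ± 0.21), an isomerase of isoprene units. The count was 12 with quantile normalization and 8 to 11 with 1 library left out. In a test of only genes with no overlap, 4 of 12 members were higher. Of 15 genes of cholesterol efflux and transport, 0 were called by limma (3 higher at an unadjusted p under 0.05), and of 14 bile acid genes 0 (1 higher and 1 lower).

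Of 21 genes of fatty acid synthesis, desaturation and elongation, 3 rose, with a median of 0.64, and 5 rose without replicate 3 at 0 h. SCD, the stearoyl-CoA desaturase that turns saturated acyl chains into monounsaturated ones, had 108, 108, 132 and 170 FPKM at 0 h and 231, 237, 189 and 292 FPKM at 48 h. All 4 treated libraries were above the untreated ones, a 1.84-fold rise (0.88 ± 0.15, limma adjusted p = 0.00051). The elongases ELOVL5 (1.41 ± 0.31) and ELOVL1† (2.02 ± 0.56) were the others. ELOVL6, which lengthens palmitic acid itself, had a log2 fold change of 2.24 ± 0.75 and was not called; its 48 h libraries were at 9.66, 69.3, 8.79 and 12.1 FPKM. FASN, the multi-enzyme that builds palmitic acid, stood at 27.9 ± 10.6 FPKM at 0 h and 23 ± 3.67 at 48 h, and its change of -0.21 ± 0.35 was smaller than the spread.

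Of 27 genes of fatty acid activation, mitochondrial entry and oxidation, 3 rose and 1 fell, with a median of 0.07. ACSL1, a long-chain acyl-CoA synthetase, had a value of 0 in every untreated library and stood at 4.67, 8.92, 5.85 and 9.07 FPKM at 48 h. No fold is given against the zeros, and limma called the difference (adjusted p = 1.46e-05). CPT1A†, the carnitine transferase that commits acyl chains to mitochondria, had 2.12, 0.865, 0.403 and 0.793 FPKM at 0 h and 5.69, 6.53, 3.04 and 3.95 FPKM at 48 h. The groups did not overlap (1.84 ± 0.54, limma adjusted p = 0.0383), but the call was lost in 6 of 8 fits with 1 library left out, with an adjusted p up to 0.101. ETFA, an electron acceptor of beta oxidation, rose by 1.75 ± 0.32, from 17.5 ± 2.95 to 62.7 ± 21.5 FPKM. ETFDH°, which passes those electrons on, fell by 1.15 on the log2 scale; its exons overlap PPID°, which fell too (-0.67). Of 9 targets of PPAR alpha and ketone body genes, 0 were called by limma (1 higher and 1 lower at an unadjusted p under 0.05).

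Storage and membrane lipid genes were called at shares near the 6.79% of all genes: 8% of 25 glycerolipid and droplet genes, 4.55% of 22 phospholipid genes and 6.90% of 29 sphingolipid genes. GPAT3, an acyltransferase that starts triglyceride synthesis, was at 0, 0, 3.18 and 1.61 FPKM at 0 h and at 6.69, 18.8, 5.26 and 9.21 FPKM at 48 h. All treated libraries exceeded the untreated ones (2.99 ± 0.63, limma adjusted p = 0.00386). PLIN2, the coat protein of hepatocyte lipid droplets, moved by 1.33 ± 0.42 and missed the threshold (adjusted p = 0.0618, limma). CIDEB°†, a droplet fusion and lipoprotein factor, fell by 0.43, so 1 of 25 glycerolipid and droplet genes rose and 1 fell, with a median of 0.66. Among 22 phospholipid genes LPCAT3°, which puts polyunsaturated chains into phosphatidylcholine, fell from 525 ± 43.5 to 291 ± 35.2 FPKM (-0.85 ± 0.13); its row overlaps EMG1°, which had a log2 fold change of -0.38 and was not called. Among 29 sphingolipid genes ASAH1°, the acid ceramidase of the lysosome, rose by 1.95 ± 0.25 and ORMDL2°, a brake on ceramide synthesis, fell by 0.56.

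Lipoprotein genes rose in 3 of 17 cases (17.6%, against 2.57% of all genes). That count was 1 without replicate 1 or 2 at 0 h or replicate 0 or 3 at 48 h. APOA2, an HDL apolipoprotein, stood at 106, 148, 84.5 and 111 FPKM at 0 h and at 419, 452, 460 and 491 FPKM at 48 h. The groups were far apart, with the highest untreated library at 148 and the lowest treated one at 419, and APOA2 rose 4.11-fold (2.04 ± 0.20, limma adjusted p = 3.54e-07). LIPC†, the hepatic lipase, rose by 2.47 ± 0.65 from values of 0 to 3.19 FPKM. APOB°†, the structural protein of VLDL, rose by 0.63 ± 0.17, while APOA1° had a log2 fold change of -0.53 ± 0.19 and was not called.

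**Figure D2:**
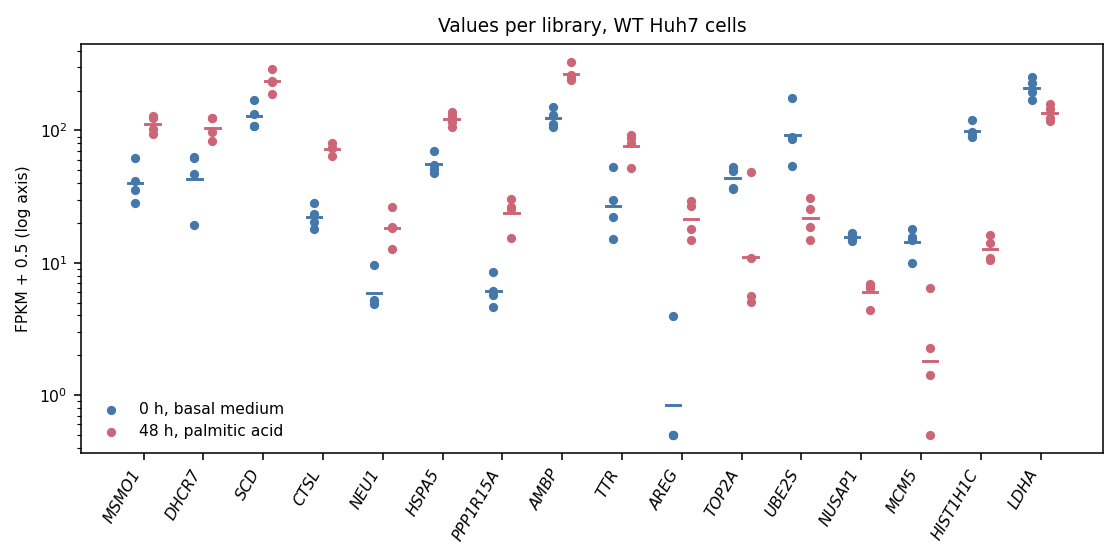
FPKM + 0.5 on a log axis in each of the 4 libraries at 0 h (blue) and 48 h (red) for 16 genes; horizontal lines are means on the log scale. The genes from MSMO1 to AREG sit higher at 48 h and those from TOP2A to LDHA lower; 1 treated library of TOP2A, at 47.8 FPKM, lies among the untreated values, and TTR overlaps by 1 library at 52.1 and 1 at 51.9 FPKM.

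Of 63 lysosomal hydrolases, membrane proteins, proton pump subunits and receptors tested, 11 rose (17.5%, against 2.57% of all genes) and 56 had a positive log2 fold change, and the median was 1.00. CTSL, the cysteine protease cathepsin L (ENSG00000135047.14, chromosome 9, 87725519 to 87731393, GRCh38), stood at 27.6, 17.5, 19.8 and 22.8 FPKM at 0 h and at 73, 80.4, 73.7 and 63.3 FPKM at 48 h. The lowest treated library was well above the highest untreated one, a 3.29-fold rise (1.72 ± 0.25, limma adjusted p = 6.9e-05). NEU1, the lysosomal sialidase, had 9.1, 4.76, 4.39 and 4.6 FPKM at 0 h and 17.9, 18.3, 12.2 and 25.7 FPKM at 48 h. It too separated the groups (1.63 ± 0.39, limma adjusted p = 0.0115). ATP6V0E1, a membrane subunit of the proton pump that acidifies lysosomes, rose by 2.38 ± 0.51, from 10.4 ± 5.71 to 54.2 ± 27.2 FPKM. GLA†, the alpha-galactosidase (1.48 ± 0.42), and IGF2R†, the receptor that carries mannose-6-phosphate-tagged enzymes to lysosomes (1.56 ± 0.45), also rose. IGF2R† was at 27.9 FPKM in replicate 0 at 48 h and at 9.85 to 12.5 in the other 3 libraries, and without that replicate its change was 1.23 with an adjusted p of 0.137. The other 6 calls were ASAH1°, the protease CTSD° (1.88 ± 0.36), the peptidase TPP1°† (1.81 ± 0.53), the thioesterase PPT1°† (1.71 ± 0.44), the hexosaminidase subunit HEXA° (1.70 ± 0.31) and the sialomucin CD164° (1.36 ± 0.34). Abundant members varied: LAMP1, a major membrane glycoprotein, was not called at 1.42 ± 0.45, and CTSB, cathepsin B, stayed at 87.7 ± 7.85 and 92.1 ± 6.17 FPKM (0.07 ± 0.18). The count of 11 was 7 without replicate 3 at 48 h and 3 of 41 in a test of only genes with no overlap. In autophagy 2 of 38 genes rose (5.26%), SQSTM1°, a cargo receptor (0.70 ± 0.18), and ATG13°† (1.90 ± 0.56), and 1 fell.

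The promoters of lysosomal genes are known for a palindromic element, GTCACGTGA on either strand, that binds the MiT/TFE transcription factors. In the 250 bases before the RefSeq start (GRCh38.p14), 7 of 42 matched lysosomal promoters held it (16.7%), against 211 of 27305 promoters of all genes (0.773%), and of the 7 genes IGF2R† and CD164° were called. A match is a description of letters and not a binding site shown in these cells. The upstream sequences of these 2 genes are shown because they carry both the element and a call, with the element in capitals; IGF2R† lies at chr6:159968832-159969081 on the plus strand and CD164° at chr6:109382468-109382717 on the minus strand.
IGF2R: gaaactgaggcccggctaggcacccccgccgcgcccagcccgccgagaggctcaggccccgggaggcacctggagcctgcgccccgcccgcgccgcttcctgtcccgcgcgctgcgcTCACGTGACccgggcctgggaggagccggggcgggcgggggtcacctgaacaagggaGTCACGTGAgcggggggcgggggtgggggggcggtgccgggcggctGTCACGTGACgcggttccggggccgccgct
CD164: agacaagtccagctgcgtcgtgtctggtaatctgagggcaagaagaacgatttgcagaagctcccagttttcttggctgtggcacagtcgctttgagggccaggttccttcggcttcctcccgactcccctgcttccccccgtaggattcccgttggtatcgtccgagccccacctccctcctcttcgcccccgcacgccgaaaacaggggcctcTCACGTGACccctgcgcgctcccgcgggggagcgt

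ER chaperones and degradation factors rose in 6 of 46 cases, with 1 lower and a median of 0.48. HSPA5, the main ER chaperone and sensor partner (ENSG00000044574.7, chromosome 9, 125234853 to 125241330, GRCh38), had 54.4, 47.6, 50.8 and 69.7 FPKM at 0 h and 106, 115, 128 and 138 FPKM at 48 h. The groups did not overlap and HSPA5 rose 2.19-fold (1.13 ± 0.19, limma adjusted p = 0.000333). HERPUD1, a scaffold of ER-associated degradation, was at 0, 4.31, 0 and 0 FPKM at 0 h and at 29.8, 25.8, 25.2 and 23.2 FPKM at 48 h. Its log2 change of 4.91 ± 0.84 starts from 3 libraries at 0 and depends on the pseudocount, but every treated library was above 23 FPKM. CANX°, a lectin chaperone (0.88 ± 0.22), PDIA3°† (0.88 ± 0.26), a disulfide isomerase, HYOU1°† (1.01 ± 0.29), a nucleotide exchange factor, and SSR1°† (1.13 ± 0.32), a translocon subunit, rose. CALR°†, the soluble partner of CANX°, fell by 0.53; its row overlaps AC092069.1, which averaged 3524 FPKM at 0 h and also fell (-0.80). HSP90B1° had 0.47 ± 0.18 and was not called. With 1 library left out, 2 to 5 members were called higher, 2 without replicate 1 at 0 h or replicate 0 at 48 h.

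The ER stress element, CCAAT and CCACG with 9 bases of any kind between them, known to bind NF-Y and ATF6, stood on either strand in 7 of 42 matched promoters of this list (16.7%) and in 22 of 27305 promoters of all genes (0.0806%). Like the other motif shares here, these describe promoter letters only and compare no levels between 0 h and 48 h. The 7 included HSPA5 and CANX°, which rose, and CALR°†, whose fall was not called under median-of-ratios rescaling or quantile normalization. The other promoters with the element, that of HSP90B1° among them, belonged to genes that were not called. HSPA5 (chr9:125241344-125241593, minus strand) and CANX° (chr5:179698679-179698928, plus strand) were picked because they rose and are printed with the element in capitals.
HSPA5: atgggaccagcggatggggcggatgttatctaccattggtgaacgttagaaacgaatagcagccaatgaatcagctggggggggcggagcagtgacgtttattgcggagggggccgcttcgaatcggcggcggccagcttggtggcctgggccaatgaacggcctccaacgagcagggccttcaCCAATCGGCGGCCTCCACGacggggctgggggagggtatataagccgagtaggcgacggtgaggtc
CANX: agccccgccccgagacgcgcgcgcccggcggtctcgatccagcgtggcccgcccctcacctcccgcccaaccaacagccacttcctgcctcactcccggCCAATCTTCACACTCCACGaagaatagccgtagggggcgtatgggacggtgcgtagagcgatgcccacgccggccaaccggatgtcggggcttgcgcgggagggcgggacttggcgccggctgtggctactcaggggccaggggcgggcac

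The integrated stress response showed 5 higher genes of 27 (18.5%, against 2.57% of all genes). The median was 0.94, and 3 were higher without replicate 2 at 48 h. ATF4, its transcription factor, had 70.6, 57.2, 31.8 and 60 FPKM at 0 h and 95.7, 103, 89.9 and 124 FPKM at 48 h. The treated libraries were all above the untreated ones (0.95 ± 0.23, limma adjusted p = 0.0111). PPP1R15A, the phosphatase subunit that reverses eIF2α phosphorylation, rose from 5.25, 5.56, 4.16 and 8.02 FPKM to 26.1, 15, 29.6 and 25 FPKM. It rose 3.88-fold (1.96 ± 0.30, limma adjusted p = 0.000122) without overlap. CEBPG, a partner of ATF4, rose 2.29-fold, from 5.88 ± 1.36 to 13.9 ± 2.13 FPKM, ATF3† by 2.41 ± 0.64 and KLHL24 by 3.67 ± 0.72, the last from libraries of which 1 was at 9.81 FPKM and the others at 0.258 or 0. DDIT3°, which encodes CHOP, had 0.81 ± 0.31 and ASNS, the asparagine synthetase, 0.25 ± 0.42, and neither was called. Among amino acid genes, PSAT1, an enzyme of serine synthesis, rose by 1.37 ± 0.24, from 16.9 ± 7.32 to 41.9 ± 4.27 FPKM. The glutamine transporter SLC38A1 (0.95 ± 0.23) and the cystine transporter SLC7A11° (1.16 ± 0.30) rose as well. PCK2, the mitochondrial PEP carboxykinase, rose by 1.37 ± 0.35.

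Targets of NRF2, the regulator of antioxidant genes, rose in 5 of 32 cases (15.6%, against 2.57% of all genes). Of the 32, 27 were positive with a median of 0.67, and 3 rose without replicate 1 at 0 h or replicate 3 at 48 h. TXN, thioredoxin, had 38.4, 45.8, 37.6 and 48.7 FPKM at 0 h and 89.4, 58.9, 121 and 71.8 FPKM at 48 h. No library of one group fell in the range of the other (0.95 ± 0.24, limma adjusted p = 0.0153). SRXN1, a sulfiredoxin, rose by 2.13 ± 0.52, AKR1C2†, an aldo-keto reductase, by 1.73 ± 0.46, FTH1°, the ferritin heavy chain, by 0.74 ± 0.18, and the fifth was SLC7A11°. The cytosolic chaperones went the other way in 4 of 28 cases (14.3%, against 4.22% of all genes). TCP1° (-0.50 ± 0.09), HSP90AA1°† (-0.48 ± 0.14), DNAJB1° (-1.38 ± 0.36) and FKBP4°† (-1.88 ± 0.52) fell, all of them marked for overlap. That count was 1 without replicate 0 at 0 h, 2 without replicate 3 at 0 h or replicate 0, 1 or 3 at 48 h, and 1 with quantile normalization. HSF2, a heat shock transcription factor, rose from 0, 0, 0 and 2.16 FPKM to 12.1, 8.37, 11.6 and 11.9 FPKM. That gene was among the 12 highest changes that met the rule for named genes (3.91 ± 0.78, limma adjusted p = 0.0023).

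**Figure D3:**
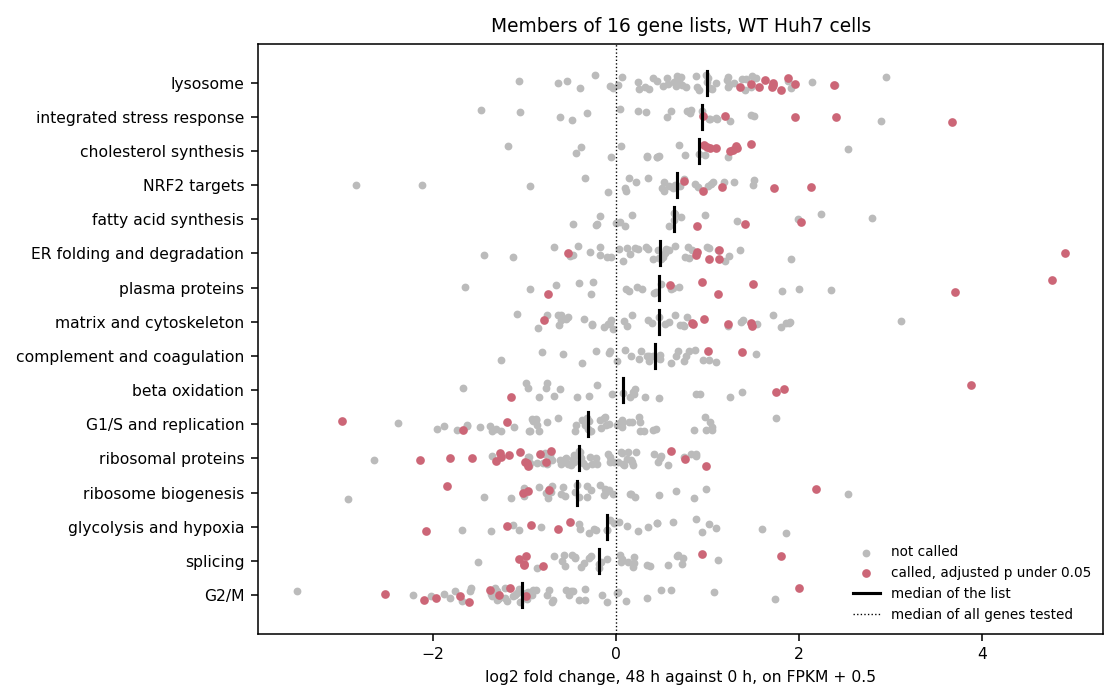
Log2 fold changes at 48 h against 0 h (horizontal) of the members of 16 gene lists (rows); red points were called at an adjusted p under 0.05, vertical bars are list medians and the dotted line is the median of all genes. The lysosome list lies furthest to the right of the 16 by its median (1.00) and the G2/M list furthest to the left (-1.03).

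Plasma proteins rose in 6 of 26 cases (23.1%, against 2.57% of all genes) and fell in 1, with a median of 0.47. AMBP, the precursor of alpha-1-microglobulin and bikunin (ENSG00000106927.11, chromosome 9, 114060127 to 114078472, GRCh38), had 106, 112, 130 and 149 FPKM at 0 h and 263, 242, 249 and 326 FPKM at 48 h. The lowest treated library, at 242, was above the highest untreated one, at 149, and AMBP rose 2.17-fold (1.12 ± 0.15, limma adjusted p = 3.76e-05). ALB, albumin, rose from 146 ± 26.4 to 280 ± 31.5 FPKM (0.94 ± 0.24). TTR, transthyretin, rose 2.82-fold, from 29.4 ± 16.2 to 77.3 ± 17.6 FPKM, and TF, transferrin, by 0.59 ± 0.16. SPINK1, a trypsin inhibitor, varied most: 35.8, 0, 98.8 and 52.7 FPKM at 0 h and 764, 346, 293 and 682 FPKM at 48 h. Even so, its lowest treated library was above the highest untreated one (4.77 ± 1.11, limma adjusted p = 0.00894). IGFBP1, an IGF-binding protein, had a value of 0 in every untreated library and stood at 10.1, 5.61, 4.74 and 4.87 FPKM at 48 h. CP°, ceruloplasmin, fell by 0.75, and SERPINA1, alpha-1-antitrypsin, stayed within its spread at 346 ± 36.4 and 386 ± 70.5 FPKM. The count of 6 was 3 without replicate 0 at 0 h.

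Other liver genes were mostly not called. CLU, the extracellular chaperone clusterin, rose 2.01-fold, from 240 ± 46.8 to 478 ± 63.2 FPKM (1.01 ± 0.19), and C5† by 1.38 ± 0.37. They made 2 of 32 complement and coagulation genes (6.25%, against 2.57% of all genes). The microsomal glutathione transferase MGST1 had 94.6, 77.5, 69.4 and 78.6 FPKM at 0 h and 188, 209, 146 and 160 FPKM at 48 h. Its groups did not overlap (1.12 ± 0.19, limma adjusted p = 0.000418). With the glucuronosyltransferase UGT2B4 (1.93 ± 0.45) MGST1 made 2 of 31 xenobiotic genes (6.45%). Of 21 hepatocyte transcription factors, NR1I3° (-1.54 ± 0.19), the receptor CAR, and CEBPA°† (-1.19 ± 0.34) fell, and HNF4A had 12.3 ± 3.79 and 10.3 ± 1.81 FPKM. CEBPA°† lies opposite AC008738.3, at 6034 FPKM at 0 h and 4341 at 48 h. Of 12 hepatocyte markers 4 rose (TTR, ALB, APOB°†, TF) and 1 fell (KRT8°); the 4 were 1 without replicate 0 at 0 h and 2 without replicate 1 or 2 at 0 h or replicate 1 at 48 h. All 12 markers were above 0 in both groups, and their summed FPKM was 7878 to 9814 at 0 h and 6134 to 7048 at 48 h. Most of that sum was KRT8°, at means of 7385 FPKM at 0 h and 4988 at 48 h. The median log2 fold change of the 12 was 0.22. Among markers of other cells, 2 of 8 biliary (KRT7, AQP1), 3 of 8 stellate (COL1A1, LRAT, DCN), 3 of 10 immune (CD163, MARCO, MS4A1) and 5 of 8 endothelial genes (VWF, CDH5, KDR, CLEC4G, TEK) were at 0 in all 8 libraries. Summed FPKM was 83.7 to 165 at 0 h and 186 to 312 at 48 h for the immune list, 18.7 to 33.1 and 37.2 to 61.7 for the biliary list, 0 to 6.19 and 0 to 6.75 for the stellate list, and 8.38 to 33.5 and 27.1 to 52.1 for the endothelial list. Most of the immune sum was LYZ°, which rose by 0.82 ± 0.20 and overlaps the antisense gene AC020656.1 at 37955 FPKM at 0 h.

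Genes of mitosis were lower after 48 h. Of 64 G2/M genes tested, 9 fell (against 4.22% of all genes) and 1 rose, 55 had a negative log2 fold change, and the median was -1.03. UBE2S, the ubiquitin-conjugating enzyme of the anaphase-promoting complex (ENSG00000108106.13, chromosome 19, 55399745 to 55407777, GRCh38), had 88.8, 177, 86.1 and 53 FPKM at 0 h and 18, 25.1, 30.6 and 14.4 FPKM at 48 h. The groups did not overlap and UBE2S was 4.28-fold lower (-2.10 ± 0.41, limma adjusted p = 0.00184). TOP2A†, the topoisomerase that untangles chromosomes, had 52.7, 36.5, 35.8 and 48.8 FPKM at 0 h and 47.8, 5.15, 4.54 and 10.4 FPKM at 48 h. Replicate 0 at 48 h lay among the untreated values; TOP2A† fell by 1.97 with it (limma adjusted p = 0.025) and by 2.68 without it (limma adjusted p = 0.000388), and the call was lost when other libraries were left out. NUSAP1†, a spindle protein, was tight within groups, with 14.1, 14.3, 16.2 and 16 FPKM at 0 h and 6.3, 3.86, 5.93 and 6.39 FPKM at 48 h. It fell by 1.38 (limma adjusted p = 0.0359), and its adjusted p lay between 0.0529 and 0.101 in the 8 fits with 1 library left out. HMGB2, a chromatin protein of dividing cells, fell from 77.9 ± 14.3 to 34.4 ± 3.12 FPKM (-1.15 ± 0.20). The spindle and kinesin genes TPX2† (-0.98 ± 0.28), KIF14† (-1.60 ± 0.48) and HMMR°† (-2.52 ± 0.75), the kinase PBK† (-1.70 ± 0.50) and the condensin subunit NCAPD2° (-1.28 ± 0.15) completed the 9. CDK1, the mitotic kinase, had -1.21 ± 0.50 and PLK1° -1.30 ± 0.48, and neither was called. The single rise was the row of CKAP2L°, from 2.46 ± 2.42 to 9.75 ± 4.3 FPKM. CKAP2L° overlaps NT5DC4°, whose row had 142, 103, 104 and 108 FPKM at 0 h and 0, 0, 0 and 2.19 FPKM at 48 h. Which of these genes the reads of either row came from was not tested. The count of 9 was 4 without replicate 3 at 0 h or replicate 1 at 48 h, and 5 without replicate 1 at 0 h or replicate 2 or 3 at 48 h. It was at most 7 without any 1 library and 4 with median-of-ratios rescaling. In a test of only genes with no overlap 2 of 41 fell, against 60 of 9213 of all genes in that test.

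The cell cycle homology region, searched as TTTGAA or TTCGAA on either strand, is known from late cell cycle promoters. It stood in 27 of 54 matched G2/M promoters (50%), in 3 of 50 promoters of the G1/S list (6%) and in 3983 of 27305 promoters of all genes (14.6%). Of the 9 genes that fell, TOP2A†, HMMR°† and NCAPD2° held it, and TPX2† had no matched promoter and was not searched. CKAP2L°, whose row rose, held it too. The other promoters with it belonged to genes that were not called. TOP2A† (chr17:40417897-40418146, minus strand) and HMMR°† (chr5:163460382-163460631, plus strand) are printed with the letters in capitals.
TOP2A: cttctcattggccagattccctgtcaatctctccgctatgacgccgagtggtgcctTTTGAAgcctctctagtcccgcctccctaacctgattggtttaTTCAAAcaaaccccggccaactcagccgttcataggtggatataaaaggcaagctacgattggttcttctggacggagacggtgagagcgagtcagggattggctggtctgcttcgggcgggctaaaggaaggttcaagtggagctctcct
HMMR: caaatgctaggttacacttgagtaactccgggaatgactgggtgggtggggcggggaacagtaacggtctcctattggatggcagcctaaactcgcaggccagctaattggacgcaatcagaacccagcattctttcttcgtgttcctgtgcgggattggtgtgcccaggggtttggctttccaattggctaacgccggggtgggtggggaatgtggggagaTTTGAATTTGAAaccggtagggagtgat

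Of 61 G1/S genes 3 fell (4.92%, near the 4.22% of all genes), the helicase subunits MCM5† (-2.99 ± 0.88) and MCM3† (-1.19 ± 0.35) and the maintenance methyltransferase DNMT1† (-1.68 ± 0.49), and the median was -0.31. MCM5† had 17.4, 15.2, 9.42 and 14.4 FPKM at 0 h and 0, 0.929, 5.92 and 1.77 FPKM at 48 h. The groups did not overlap, but the 3 calls were all lost in 6 or 7 of the 8 fits with 1 library left out. The count was 0 with median-of-ratios rescaling, 1 with quantile normalization and 0 of 37 in a test of only genes with no overlap. INCENP, a subunit of the chromosomal passenger complex outside the G2/M list, fell by 2.18 (limma adjusted p = 0.00637). Linker histone HIST1H1C (ENSG00000187837.3, chromosome 6, 26055787 to 26056428, GRCh38) stood at 88.5, 91.1, 97.1 and 119 FPKM at 0 h and at 10.3, 10.1, 15.8 and 13.6 FPKM at 48 h. It was 7.76-fold lower (-2.96 ± 0.42, limma adjusted p = 5.87e-05), with no overlap. The chromatin protein HMGA1 fell by 1.61 and the replacement linker histone H1F0 rose by 0.82 ± 0.20, from 48 ± 11.1 to 84 ± 11.4 FPKM. Among 25 cell cycle inhibitors and p53 targets, TP53INP1 (2.24 ± 0.48) and BTG2† (1.89 ± 0.57), both antiproliferative, rose.

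Of 73 ribosomal protein genes 14 fell (19.2%, against 4.22% of all genes) and 3 rose, with 50 negative and a median of -0.40. The 14 were 8 without replicate 1 at 0 h and 9 without replicate 0 at 0 h, and 4 of 45 fell in a test of only genes with no overlap. RPS15, a protein of the small subunit, had 215, 206, 197 and 170 FPKM at 0 h and 80.9, 78.5, 71.1 and 40.9 FPKM at 48 h. It was 2.98-fold lower (-1.58 ± 0.31, limma adjusted p = 0.00198), and no treated library reached the untreated range. RPS2 (-1.17 ± 0.26), RPL13 (-1.05 ± 0.27), RPL26 (-1.31 ± 0.35), RPL28† (-1.27 ± 0.37), RPLP0† (-0.83 ± 0.24), RPS3† (-0.96 ± 0.26) and RPL7A† (-0.77 ± 0.22) also fell and have no overlap. The 3 that rose, RPL17°, RPS27A° and RPL15°†, all overlap an opposite-strand gene. The direction of this list depended on scaling, with 7 higher and 3 lower under quantile normalization and 3 and 9 under median-of-ratios rescaling. Many ribosomal proteins have processed copies elsewhere in the genome, and how shared reads were assigned is not given. In ribosome biogenesis 4 of 39 genes fell, 2 without replicate 1 at 48 h: NCL, nucleolin (-0.73 ± 0.18), LYAR† (-1.02 ± 0.28), NOP16° (-0.96 ± 0.19) and MYBBP1A° (-1.85 ± 0.42). BOP1, a factor of the large subunit, went the other way, from 31.9, 54.2, 81.8 and 37.4 FPKM to 235, 158, 290 and 221 FPKM. It rose 4.57-fold without overlap of the groups (2.19 ± 0.28, limma adjusted p = 1.49e-05).

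Splicing and RNA-binding proteins fell in 5 of 39 cases (12.8%, against 4.22% of all genes), all hnRNP genes. HNRNPC had 217, 131, 201 and 188 FPKM at 0 h and 91.2, 94.5, 98.5 and 78.1 FPKM at 48 h. That was 2-fold lower with no overlap (-1.00 ± 0.19, limma adjusted p = 0.00186). HNRNPU° (-0.98 ± 0.12), HNRNPM° (-1.00 ± 0.21), HNRNPA3° (-1.06 ± 0.22) and HNRNPR† (-0.80 ± 0.23) were the others. The SR protein SRSF5† (0.95 ± 0.27) and the SR kinase CLK1 (1.80 ± 0.46) rose. PABPC1, the poly(A)-binding protein, was the only one of 36 translation factors called, from 125 ± 17.6 to 62.1 ± 14.8 FPKM. The row of EEF1A1, an elongation factor, averaged 0 FPKM over the 24 libraries and was not tested. In the proteasome PSMD2 fell by 1.66 and PSMA3† rose by 0.65 ± 0.19.

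All 13 protein genes of the mitochondrial genome were called, in both directions. Of them 9 rose, by 1.28 to 2.85 with a median of 2.40 among those 9. MT-ND1, a complex I subunit, had 265, 212, 239 and 249 FPKM at 0 h and 1863, 1410, 1277 and 1632 FPKM at 48 h. MT-CO2, a subunit of cytochrome oxidase, had 1136, 817, 1142 and 1237 FPKM and then 5920, 5145, 4840 and 5137 FPKM. Both were separated by more than the range of either group, with changes of 2.67 ± 0.15 and 2.29 ± 0.13. MT-CO3, MT-ATP6, MT-ATP8 and MT-CO1 were the 4 others. They averaged 1090, 1122, 6373 and 410 FPKM at 0 h and were listed at 0 in all 4 libraries at 48 h, which can be a failed estimate, and no fold is given. Of 66 nuclear OXPHOS genes, COX6C† rose (3.26 ± 0.98) and ATP5F1B (-0.91 ± 0.23), NDUFS8† (-1.96 ± 0.60) and NDUFB11° (2.3-fold lower) fell, with a median of 0.09. The 3 that fell were 1 without replicate 0 at 0 h or replicate 1 or 2 at 48 h. The mitochondrial polymerase POLG° fell by 1.62, and its row overlaps FANCI°†, which fell too (-0.66). The uncoupler UCP2 had a value of 0 in every untreated library and stood at 15.1, 19.8, 1.06 and 25.6 FPKM at 48 h.

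Glycolysis and hypoxia genes fell in 5 of 32 cases (15.6%, against 4.22% of all genes). The count was 2 without replicate 1 or 2 at 0 h or replicate 1 at 48 h, 3 without replicate 3 at 0 h or replicate 0 or 3 at 48 h, and 0 of 17 in a test of only genes with no overlap. LDHA†, lactate dehydrogenase, had 195, 171, 228 and 254 FPKM at 0 h and 145, 117, 124 and 159 FPKM at 48 h. The groups were close but did not overlap (-0.63 ± 0.17, limma adjusted p = 0.0286). PFKFB3†, which makes the activator of phosphofructokinase, fell by 2.08, from 1.25 to 10.4 FPKM at 0 h to values below 1 FPKM. ALDOA°† (-1.19 ± 0.33), ANKRD37° (-0.93 ± 0.23) and GAPDH° (-0.50 ± 0.13) fell too, and the antisense row AC006064.4 over GAPDH° fell by 1.52. PKM had -0.41 ± 0.22 and ENO1° 0.44 ± 0.19 and were not called. With quantile normalization 2 rose and 2 fell.

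Signalling genes with high folds came from low levels. AREG, a ligand of the EGF receptor (ENSG00000109321.10, chromosome 4, 74445134 to 74455009, GRCh38), was at 0, 0, 3.45 and 0 FPKM at 0 h and at 28.7, 17.5, 26.1 and 14.4 FPKM at 48 h. All treated libraries were far above the untreated ones (4.67 ± 0.65, limma adjusted p = 4.13e-05). KLF4, a transcription factor of growth arrest, had a value of 0 in every untreated library and stood at 6.38, 6.27, 4.1 and 7.88 FPKM at 48 h. KLF6† rose by 1.43 ± 0.42 and FST, follistatin, which binds activins, by 2.94 ± 0.74. CXCL5, a neutrophil chemokine, had 8.71, 4.51, 12.2 and 5.53 FPKM at 0 h and 19.7, 20.8, 18.9 and 20.1 FPKM at 48 h. The treated libraries were tightly grouped above the others (1.40 ± 0.28, limma adjusted p = 0.00249). With the cytokine IL32† (2.79 ± 0.84) it made 2 of 26 NF-kB and chemokine genes (7.69%, against 2.57% of all genes). B2M†, the light chain of MHC class I (1.83 ± 0.54), was the only one of 21 interferon genes called. IGF2°† fell by 0.84. Of 35 genes of the BCL2 family and cell death, 0 were called by limma (6 higher and 1 lower at an unadjusted p under 0.05).

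Matrix and cytoskeleton genes rose in 6 of 47 cases and fell in 1, with a median of 0.47. In a test of only genes with no overlap 1 of 20 rose, with a median of 0.02. FN1, fibronectin, had 196, 161, 256 and 190 FPKM at 0 h and 392, 315, 352 and 362 FPKM at 48 h. It rose 1.79-fold and its groups did not overlap (0.84 ± 0.17, limma adjusted p = 0.00252). ACTN4°, an actin crosslinker (1.48 ± 0.26), the actin-binding thymosins TMSB10° (0.83 ± 0.15) and TMSB4X† (1.23 ± 0.37), the myosin light chain MYL12A° (0.96 ± 0.23) and the integrin ITGAV°† (1.48 ± 0.43) rose. TUBA1B°, an alpha tubulin, fell by 0.78, and the antisense row over it, AC011603.2, fell from 88390 to 36915 FPKM. CD24, a surface glycoprotein, rose by 1.43 ± 0.27, from 191 ± 49.7 to 522 ± 174 FPKM.

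The gene with the highest change by the naming rule, CYSRT1, a cysteine-rich tail protein, had neighbours that moved with it. CYSRT1 (ENSG00000197191.4, chromosome 9, 137224635 to 137226311, GRCh38, plus strand) stood at 0, 9.99, 2.39 and 2.18 FPKM at 0 h and at 158, 218, 286 and 171 FPKM at 48 h. RNF224, a RING finger gene (137227271 to 137229638), had 5.93, 5.18, 7.37 and 8.26 FPKM and then 177, 211, 214 and 137 FPKM. SLC34A3, a sodium-phosphate cotransporter of the kidney (137230757 to 137236554), had 0, 2.94, 4.71 and 2.7 FPKM and then 31.8, 22.6, 30.6 and 37.6 FPKM. The 3 genes lie on 1 strand in a row, 959 and 1118 bases apart, and none overlaps an opposite-strand exon. Their changes were 6.33 ± 0.68, 4.69 ± 0.20 and 3.73 ± 0.64, and the limma adjusted p of RNF224, 7.72e-14, was the smallest among nuclear genes under the rule. Before them RNF208 was at 0 in all 8 libraries and NDOR1 was not called (-0.03 ± 0.89), after them TUBB4B° was not called (-0.63 ± 0.26), and the next gene, FAM166A° on the minus strand, fell by 2.83. FAM166A° and TUBB4B° overlap in their exons.

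**Figure D4:**
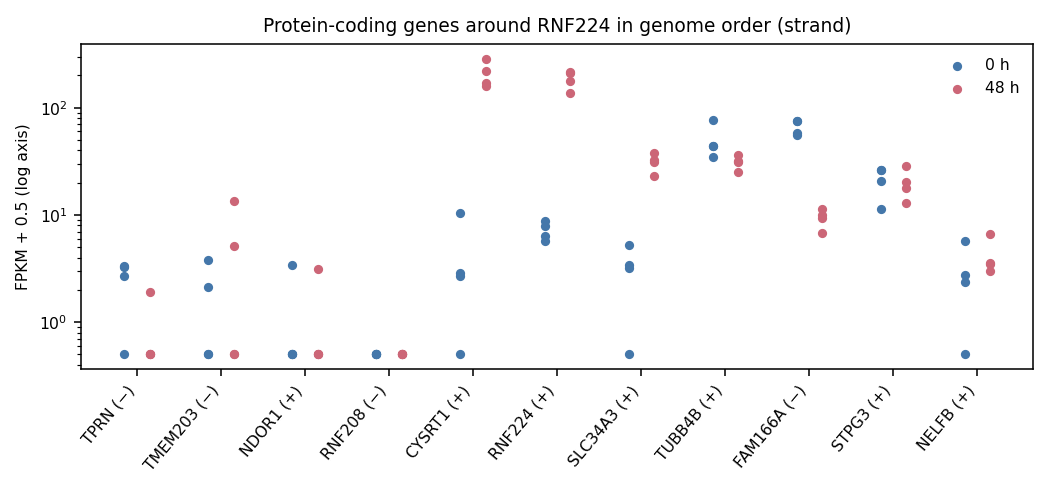
FPKM + 0.5 on a log axis in each library at 0 h (blue) and 48 h (red) for protein-coding genes around RNF224 in genome order, with the strand in brackets. CYSRT1, RNF224 and SLC34A3 are higher in all 4 treated libraries, FAM166A is lower in all 4, and the others overlap.

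Other genes named by the rule were SPATA20†, IGSF23† and COX7A2L†, which each had 3 of 4 libraries at 0 at 0 h and rose by 3.65 ± 1.04, 3.75 ± 1.10 and 3.55 ± 0.89. SECTM1, a secreted transmembrane protein, had 27.3, 25.5, 34.1 and 39.2 FPKM at 0 h and 127, 113, 97.4 and 78.9 FPKM at 48 h. It rose 3.26-fold (1.71 ± 0.24, limma adjusted p = 5.24e-05) with no overlap. PIGG, a GPI anchor enzyme, had a value of 0 in every untreated library and stood at 9.28, 19.7, 10.2 and 6.17 FPKM at 48 h, and METTL26 was at 11.1, 10.7, 19.5 and 6.8 FPKM and then listed at 0 in all 4. The lowest changes included LGALS3, galectin 3, which went from 20.9, 11.5, 28.6 and 20 FPKM to 7.85, 2.12, 2.35 and 4.75 FPKM. It was 4.65-fold lower (-2.22 ± 0.46, limma adjusted p = 0.00333). NSD2, a histone methyltransferase (-2.04 ± 0.45), the growth factor FGF18† (-3.02 ± 0.81), the methyl-CpG binder MBD1† (-2.50 ± 0.66), PACSIN3† (-2.88 ± 0.88) and LIMS1† (-1.91 ± 0.53) were also among them. Among overlapping genes CAMTA2° (3.84 ± 0.60) and LTBP1° (3.73 ± 0.64) had high changes, and the nuclear non-coding RNA MALAT1° rose from 8.14 ± 3.89 to 105 ± 40.2 FPKM (3.61 ± 0.39).

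At 24 h, 701 genes (4.06%) differed from 0 h, 252 higher (1.46%) and 449 lower (2.6%), and the step from 24 h to 48 h was tested directly. Between WT at 48 h and WT at 24 h, 21 genes (0.122%) were called, 10 higher (0.058%) and 11 lower (0.0638%). Liver secretory genes were among those higher at 48 h than at 24 h. AMBP averaged 124 FPKM at 0 h, 152 at 24 h and 270 at 48 h, with a difference between 48 h and 24 h of 0.81 ± 0.15 (limma adjusted p = 0.0296). APOA2 averaged 112, 169 and 455 FPKM (1.43 ± 0.20, limma adjusted p = 0.00154), and CLU 240, 235 and 478 FPKM (1.03 ± 0.19, limma adjusted p = 0.019). RNF224 averaged 6.69, 80.6 and 185 FPKM (1.18 ± 0.20, limma adjusted p = 0.0124). CCNB1, cyclin B1 of mitosis, was 16.6, 24.9 and 7.72 FPKM, so it was lower at 48 h than at 24 h (-1.59 ± 0.32, limma adjusted p = 0.0436) and not called against 0 h (-1.01 ± 0.32). The other called genes included MT-ND2 (0.76 ± 0.15) and MT-CO3, MT-ATP6 and MT-ATP8, which were listed at 0 at 48 h. MT-CO1 was listed at 0 at 24 h and at 48 h and was not called in this step. The 24 h and 48 h comparisons share the 4 libraries at 0 h. Beside each other, the list medians at 24 h and 48 h were 0.25 and 0.91 for cholesterol synthesis, 0.49 and 1.00 for the lysosome, 0.54 and 0.94 for the integrated stress response, 0.54 and 0.48 for ER folding, -0.10 and 0.47 for plasma proteins and -0.40 and -1.03 for G2/M; the differences of medians were not tested.

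**Figure D5:**
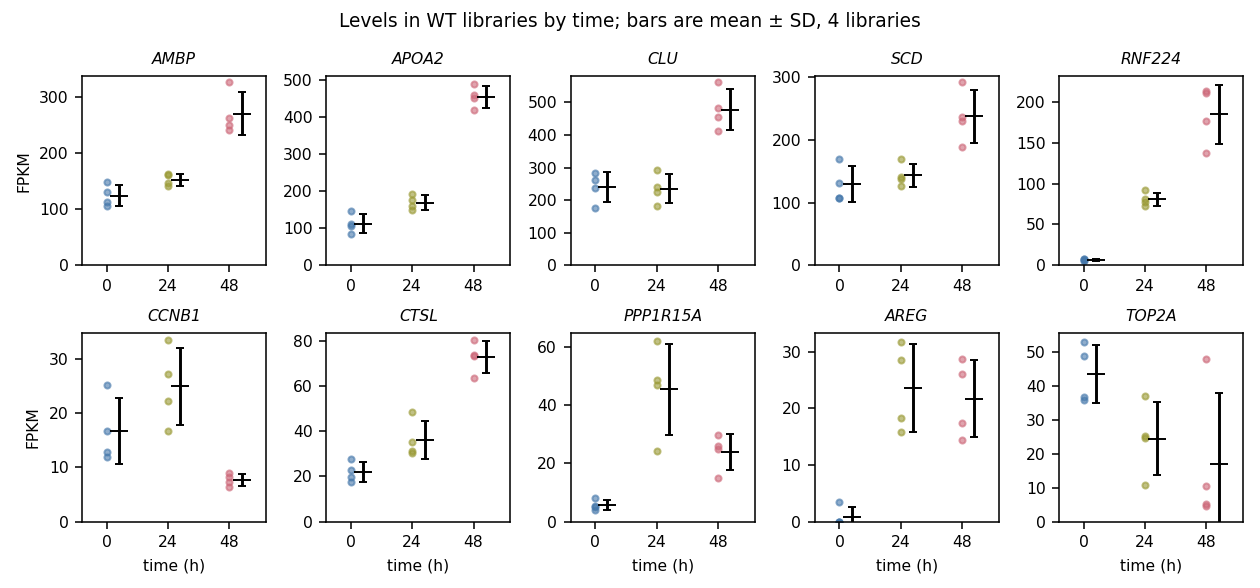
FPKM in each WT library at 0 h, 24 h and 48 h (coloured points) for 10 genes, with black bars for mean ± SD of 4 libraries. AMBP, APOA2 and CLU have higher means at 48 h than at 24 h, and AREG, with a difference of -0.12 between 48 h and 24 h on the log2 scale, was not called in that step.

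The same contrast in ABHD6 KO cells called 1695 genes (9.82%), 587 higher (3.4%) and 1108 lower (6.42%), against 1171 in WT, but those counts are not a test of a difference. A test of KO response minus WT response called 9 genes (0.0522%), 3 higher (0.0174%) and 6 lower (0.0348%). Among them MT-ND5, MT-ND3 and MT-ND4 rose less in KO, by 0.67, 1.06 and 1.31 against 2.18, 2.44 and 2.46 in WT. Their differences were -1.51 ± 0.18, -1.38 ± 0.21 and -1.15 ± 0.21. MT-CO3, MT-ATP6 and MT-ATP8 were the 3 higher ones, being listed at 0 in WT and at means of 4603, 6199 and 38550 FPKM in KO at 48 h. The lipid, lysosomal and stress genes described above were not among the 9. Side by side, the log2 changes in KO and WT were 1.97 and 1.48 for MSMO1, 1.72 and 1.10 for HMGCS1°, 1.03 and 1.88 for CTSD°, 1.47 and 1.95 for ASAH1°, 0.83 and 1.41 for ELOVL5 and 0.78 and 1.37 for PSAT1. These differences lay in both directions and none was called, with limma adjusted p between 0.775 (HMGCS1°) and 0.844 (ASAH1°, ELOVL5).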

How the data were processed

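The authors deposited 1 table of FPKM values for 58024 gene rows and 24 libraries, made from directional mRNA libraries sequenced on a NovaSeq, per the labels' protocols. STAR, Cufflinks, Cuffdiff and GRCh38 are named in the submitters' processing notes, without versions, roles or a strand setting. Depth was estimated from the smallest steps of the deposited values, using single-transcript genes of 1500 bp or more. The 45 chromosome Y copies of shared genes, all at 0, were left out. Symbols, positions and opposite-strand exon overlaps came from GENCODE 29, which matched 57375 IDs.

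The scale of all tests was log2(FPKM + 0.5), on the 17252 genes that averaged 0.5 FPKM or more across the 24 libraries. Limma 3.58.1 (R 4.3.3) fitted 6 group means with a variance trend (18 residual degrees of freedom, prior 4.63). Calls needed an adjusted p under 0.05 (Benjamini-Hochberg, all genes tested). Groups came from the sample titles. Named genes were taken by a rule with 5 parts: (a) the 12 highest and 12 lowest changes among called protein-coding genes that changed at least 2-fold, averaged 5 FPKM or more in the higher group, separated the 4 and 4 libraries and had neither an opposite-strand exon overlap nor a group entirely at 0; (b) the 10 smallest adjusted p-values among these; (c) as many as 6 protein-coding genes a direction at 0 throughout 1 group and above 5 FPKM throughout the other; (d) the 4 highest and 4 lowest antisense or overlapping genes; (e) from each list, as many as 6 called members by adjusted p and central members as values. Some of these are not reported here, and further members of lists are named beyond the rule, chosen after their values were seen. The members, the 52 lists and the motifs were chosen with earlier results of these data known. Motifs were searched in the 250 bases before the RefSeq start of 27305 genes.

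Alternatives were other pseudocounts, filters, scalings and variance settings, a replicate block, a fit of only the 8 libraries, only genes without overlap, and each library left out in turn. List counts with 1 library left out were added after seeing the data. Python 3.11.15 with pandas 2.3.3 and matplotlib 3.10.9 made tables and plots, and the fit was tested on simulated data.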

Additional observations from a re-analysis of the deposited data

Results flagged for a closer look

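In 33 of 434 groups of 4 libraries checked, over 217 named genes, 1 library stood apart from the other 3 by a gap beyond Dixon's 95% critical value. For normally distributed values such a gap comes in about 1 group in 20. That rate does not hold for low FPKM, as a group with 3 libraries at 0 and 1 above always passes. Many of the genes were also named by their values, so the 33 cannot be set against that rate. At 0 h the libraries that stood apart, by gene and FPKM, were in replicate 0 ELOVL1 at 0, NEU1 at 9.103, PSMA3 at 70.34, CLK1 at 7.815 and NT5DC4° at 141.7. In replicate 1 they were HERPUD1 at 4.309, KLHL24 at 9.812 and INCENP at 28.18, and in replicate 2 RPS27A° at 121.2, AREG at 3.448, IGSF23 at 4.461 and ELOVL6 at 7.178. In replicate 3 they were PDIA3° at 51.98, HSF2 at 2.156, SPATA20 at 5.099 and COX7A2L at 4.498.

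At 48 h the FPKM values that stood apart were in replicate 0 IGF2R at 27.86, MCFD2° at 81.88, TOP2A at 47.83, PBK at 6.614, SPATA20 at 39.26, IGFBP1 at 10.11 and ANP32E at 34.28. In replicate 1 they were HSF2 at 8.369, MALAT1° at 44.67 and ELOVL6 at 69.3, in replicate 2 CAMTA2° at 11.69, and in replicate 3 NOP16° at 201.4, HNRNPR at 19.55, ATP5F1B at 62.81, PCK2 at 10.59, FGF18 at 1.601 and NT5DC4° at 2.193.

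The WT response at 48 h differed from that at 24 h, by limma's test of the difference, for APOA2 (1.428 on the log2 scale), AMBP (0.8146), CLU (1.032), CCNB1 (-1.593), MT-ND2 (0.7611) and RNF224 (1.175). The KO response at 48 h differed from the WT response for MT-ND3 (-1.378), MT-ND4 (-1.151) and MT-ND5 (-1.509). MT-CO3, MT-ATP6 and MT-ATP8 met both tests: listed at 0 in WT at 48 h, they averaged 4905, 5100 and 32650 FPKM in WT at 24 h and 4603, 6199 and 38550 FPKM in KO at 48 h.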

How the results depend on the processing

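The 1171 calls became 750 (402 lower) with no variance trend and 591 (221 higher, 370 lower) in a fit of only the 8 libraries. They became 220 of 9213 (160 higher, 60 lower) in a test of only genes with no opposite-strand overlap, where fewer genes are tested, and the lower calls 390 with quantile normalization. With 1 library left out there were 887 to 1073 calls, 305 to 401 higher and 523 to 707 lower. Whether libraries of the same replicate number share a batch is not given in the labels and was not tested. Correlations between WT libraries at 0 h and 48 h were -0.022 to 0.144 for the same number, highest for replicate 3. They were -0.117 to 0.073 for different numbers. In every group the median-of-ratios size factors were higher in replicates 0 and 2 than in replicates 1 and 3. A replicate block gave 1253 calls. Between 48 h and 24 h the 21 calls became 43 with quantile normalization, 4 with no variance trend, 36 with the replicate block and 6 to 26 with 1 library left out (6 without WT 24 h replicate 2, 7 without its replicate 3, 9 without WT 48 h replicate 0). The 9 differences of the KO and WT responses became 4 with no variance trend and 13 with the replicate block, and 6 to 13 with 1 library left out. The cause was not tested.

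No named gene of the 199 called changed direction under the alternatives run. The call was lost for 115 of them in the fit of only the 8 libraries, 58 with no variance trend, 35 with quantile normalization, 23 with median-of-ratios rescaling, 22 with no filter on low values, 16 with array weights, 14 with a pseudocount of 0.1, 11 with the replicate block and 1 with a pseudocount of 1. In the test of only genes with no overlap 102 kept the call and 36 lost it.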

Other observations

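The genes below were chosen after their values were seen, from called genes in no list. They are single genes, and no list around them was counted. RRAGD, a GTPase that recruits mTORC1 to the lysosome, was at 0, 0, 0.508 and 1.62 FPKM at 0 h and at 5.64, 4.04, 7.88 and 15.5 FPKM at 48 h (3.19 ± 0.58). SLC17A5, the lysosomal sialic acid exporter, rose by 2.81 ± 0.46, TMEM192, a lysosomal membrane protein, by 2.44 ± 0.47 and PLBD2, a luminal hydrolase-like protein, by 1.74 ± 0.41. In each of these 4 genes the lowest treated library was above the highest untreated one. Trafficking and ER genes that rose were SERINC1 (1.18 ± 0.26), the clathrin light chain CLTA (1.38 ± 0.23), the annexin ANXA2 (1.23 ± 0.27), the ER calcium-binding protein CALU (1.18 ± 0.23), the ubiquitin-like modifier UFM1 (1.23 ± 0.30) and the chaperone HSPA13 (1.29 ± 0.30).

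Among genes that fell, PTMA, prothymosin alpha, had 1078, 760, 1029 and 809 FPKM at 0 h and 416, 337, 620 and 219 FPKM at 48 h (-1.29 ± 0.24), and its relative PTMS fell by 1.09. XRCC6, the Ku70 subunit, fell by 1.56, the histone chaperone ANP32E by 1.48 and the chromatin protein DEK† by 1.61. Among membrane and secreted proteins, SEMA4D had 49.5, 43, 41.9 and 41.2 FPKM at 0 h and 10.2, 15.6, 17.6 and 7.79 FPKM at 48 h (-1.81 ± 0.28). The ER protein RRBP1 fell from 1342 ± 201 to 645 ± 183 FPKM and the secretory kinase FAM20C by 1.13. PTMA and RRBP1 were lowest in replicate 3 at 48 h, the library with the lowest summed FPKM.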
